A study of Mus musculus with 12 samples.

Results

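The alpha and beta tubulin genes described here are 10 genes chosen by name (Tuba1a, Tuba1b, Tuba1c, Tuba4a, Tubb2a, Tubb2b, Tubb3, Tubb4b, Tubb5 and Tubb6) out of 17090 genes in the count table, and all 10 were found in it by Entrez identifier. They were followed in MTΔECad cells, a mesenchymal mouse breast cancer line whose name marks E-cadherin as lost, while the line was turned into fat cells. RNA was taken at 0 h, after 6 h and on days 3, 5, 7 and 10. Each of these 6 time points had 2 libraries, from 2 independent experiments according to the labels. After seeding at 20000 cells per cm2, the cells received 200 ng/ml of BMP2 through day 3. Rosiglitazone at 2 µM was then added to BMP2 for the next 4 days, and BMP2 was left out for the last 3. The treatment of a library is read from its time on this schedule, since the labels give only the time. BMP2 is a growth factor of the TGF-beta superfamily and rosiglitazone an agonist of the fat cell receptor PPARγ. All libraries come from this line alone. The 6 groups differ in time, treatment and time in culture at once. Untreated cells kept for the same time were not among the samples, so these factors cannot be told apart.

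Alpha and beta tubulin pair into the dimer from which microtubules are built, the hollow filaments that form the mitotic spindle, carry cargo through the cell and help to set its shape. Mammals encode each subunit in several genes, whose products (isotypes) differ mostly in their acidic C-terminal tails, where much of the enzymatic modification of microtubules takes place. The amount of tubulin mRNA is also adjusted to the amount of free dimer: a factor called TTC5 recognises the first residues of a tubulin chain as it leaves the ribosome, and the mRNA being translated is then degraded. A fall of tubulin and actin synthesis is a known feature of cultured preadipocytes as they round up and fill with lipid.

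The coding starts are shown because they carry the element read in this control of tubulin mRNA. They are the first 24 coding bases in GENCODE's annotation of GRCm38 (the build that the name mm10 also denotes), 5′ to 3′, with the first 12 bases, which encode the recognised residues, in capitals.
Tuba1a: ATGCGTGAGTGCatctccatccat
Tuba4a: ATGCGCGAGTGCatttcagtccat
Tubb2a: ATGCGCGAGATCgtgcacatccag
Tubb2b: ATGCGAGAGATCgtgcacattcag
Tubb5: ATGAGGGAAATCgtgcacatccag
Both alpha genes shown end their capitals in TGC and the 3 beta genes shown in ATC, and the codons between differ in some of these genes as well.

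Tubb2a and Tubb2b lie on chromosome 13, at chr13:34074278-34078008 and chr13:34127008-34130354 (GRCm38.p6). They are the closest pair among the beta genes, with 96.5% of coding bases the same, yet their levels parted during the protocol. The last 60 coding bases of both genes, shown because they bear on whether reads of the pair can be told apart, differed at 3 positions, which are in capitals.
Tubb2a: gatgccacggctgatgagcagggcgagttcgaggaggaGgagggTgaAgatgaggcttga
Tubb2b: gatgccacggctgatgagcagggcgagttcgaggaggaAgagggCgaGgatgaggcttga
After the stop codon the longest identical run of this pair was 10 bases, against 551 bases within the coding sequence. Their transcripts can therefore be told apart in the stretch after the stop codon, while much of the coding stretch is alike. In all, 49.6% of the 50-base windows of the Tubb2a transcript and 39.3% of those of Tubb2b also occurred in a transcript of another gene.

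The overlap was larger among Tuba1a, Tuba1b and Tuba1c, which lie on chromosome 15 at chr15:98949847-98953501, chr15:98931429-98934390 and chr15:99029891-99038105. Their coding sequences were 97.1% to 98.3% identical, and 72.9%, 73.8% and 61.0% of their windows also occurred in a transcript of another gene, mostly in each other or in gene models with Gm names. Tubb4b, at chr2:25222158-25224702, shared 50.9% of its windows, mostly with its pseudogenes Tubb4b-ps1 and Tubb4b-ps2. For Tuba4a, at chr1:75214972-75221261, and Tubb5, at chr17:35833920-35838301, the shares were 1.11% and 0.120%. Tubb6 and Tubb3 shared no window of this length. How reads that match several genes were counted is not given in the sources used here, so the levels of Tuba1a, Tuba1b, Tuba1c, Tubb2a, Tubb2b and Tubb4b, and their split within a pair, are uncertain in a way that those of Tuba4a, Tubb5 and Tubb6 are not.

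The upstream sequences of 3 beta genes are shown because their levels took different courses: Tubb2a ended above its start, Tubb4b fell and partly recovered, and Tubb5 fell and stayed low. Each is the 250 bases before the transcription start in RefSeq (GRCm38.p6, minus strand), with matches to the motifs below in capitals.
Tubb2a, chr13:34078009-34078258: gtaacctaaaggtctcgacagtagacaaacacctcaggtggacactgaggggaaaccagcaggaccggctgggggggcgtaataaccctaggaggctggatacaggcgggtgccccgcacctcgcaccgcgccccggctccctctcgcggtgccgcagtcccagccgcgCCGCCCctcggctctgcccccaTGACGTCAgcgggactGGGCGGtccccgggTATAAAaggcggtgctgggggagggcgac
Tubb4b, chr2:25224703-25224952: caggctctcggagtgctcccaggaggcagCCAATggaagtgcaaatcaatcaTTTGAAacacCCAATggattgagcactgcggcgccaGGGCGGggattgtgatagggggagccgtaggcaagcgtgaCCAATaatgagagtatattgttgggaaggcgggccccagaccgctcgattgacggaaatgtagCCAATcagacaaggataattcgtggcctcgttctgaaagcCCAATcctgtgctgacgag
Tubb5, chr17:35838302-35838551: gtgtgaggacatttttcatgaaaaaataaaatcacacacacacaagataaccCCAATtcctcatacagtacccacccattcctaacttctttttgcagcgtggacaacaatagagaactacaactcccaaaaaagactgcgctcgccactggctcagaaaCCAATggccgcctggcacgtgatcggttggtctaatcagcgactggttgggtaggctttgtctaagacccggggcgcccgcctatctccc
The motifs, chosen after these sequences had been seen, were searched on both strands in the 8 members with an entry and in all 32851 promoters of the table. Tubb2b and Tubb6 had no entry, so whether they hold these motifs is not known. The TATA box TATAAA was found in Tubb2a alone of the 8, 29 bases before the start, and in 12.4% of all promoters. The cyclic AMP response element TGACGTCA was likewise found in Tubb2a alone, 59 bases before the start, and in 1.55% of all promoters. The box CCAAT occurred at 5 positions in Tubb4b and 2 in Tubb5, and in 5 of the 8 members against 33.9% of all promoters. The GC box GGGCGG was present in 6 of 8 members and 32.7% of all promoters, and TTTGAA, the core of a cell cycle element, in Tubb4b and 16.0%. None of the 8 held the C/EBP-type site TTGCNNAA (9.56% of all promoters) or the PPAR response element (0.03%). The latter is a direct repeat of AGGTCA with 1 base between. No motif overlapped another in the sequences shown.

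Library totals lay between 12820802 and 17570366 counts. Levels are given as CPM, counts relative to the library total after TMM scaling, and so compare libraries relative to their other RNA. A mean is given ± SD with n = 2. Where genes are compared with each other, the level is CPM per kilobase of the deposited gene length. Changes are on the log2 scale, each with a standard error (SE). They were tested with edgeR over 12740 genes, and a gene was called at a Benjamini-Hochberg adjusted p below 0.05. The spread was pooled over all 12 libraries. In 9 of the 10 members every library passed the filter on low counts. Tubb3, with 26 counts in all 12 libraries together, did not pass and was not tested.

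All 9 tested tubulin genes were lower on day 3 than at 0 h and at 6 h, and 1 of them, Tubb2a, later rose past its starting level. At 0 h the 10 genes held 0.515% and 0.495% of all counts in the 2 libraries, and on day 10 0.0739% and 0.0723%. At 6 h no tubulin gene was called: edgeR called 0 of 9, none had an unadjusted p below the threshold, and DESeq2 called 0. In that comparison 0.746% of all genes tested were called. On day 3, at the end of BMP2 alone, all 9 tested genes were lower than at 0 h, with a median log2 fold change of -2.75 against 0.00 over all genes tested. Of all genes, 35.0% were called lower in this comparison, and 35.5% in that of day 3 with 6 h, in which all 9 tubulins were lower too. The same 9 genes were lower on day 5 (median -2.70, with 37.6% of all genes lower). On days 7 and 10, 8 were lower and Tubb2a was higher, with medians of -2.56 and -3.01. The background was 39.4% lower and 41.7% higher on day 7, and 39.9% lower and 42.8% higher on day 10. The joint test called all 9 genes for a difference between any time points, as it did 94.7% of all genes. These are bulk samples, in which fewer cells of a type and less RNA per cell cannot be told apart.

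**Figure D1:**
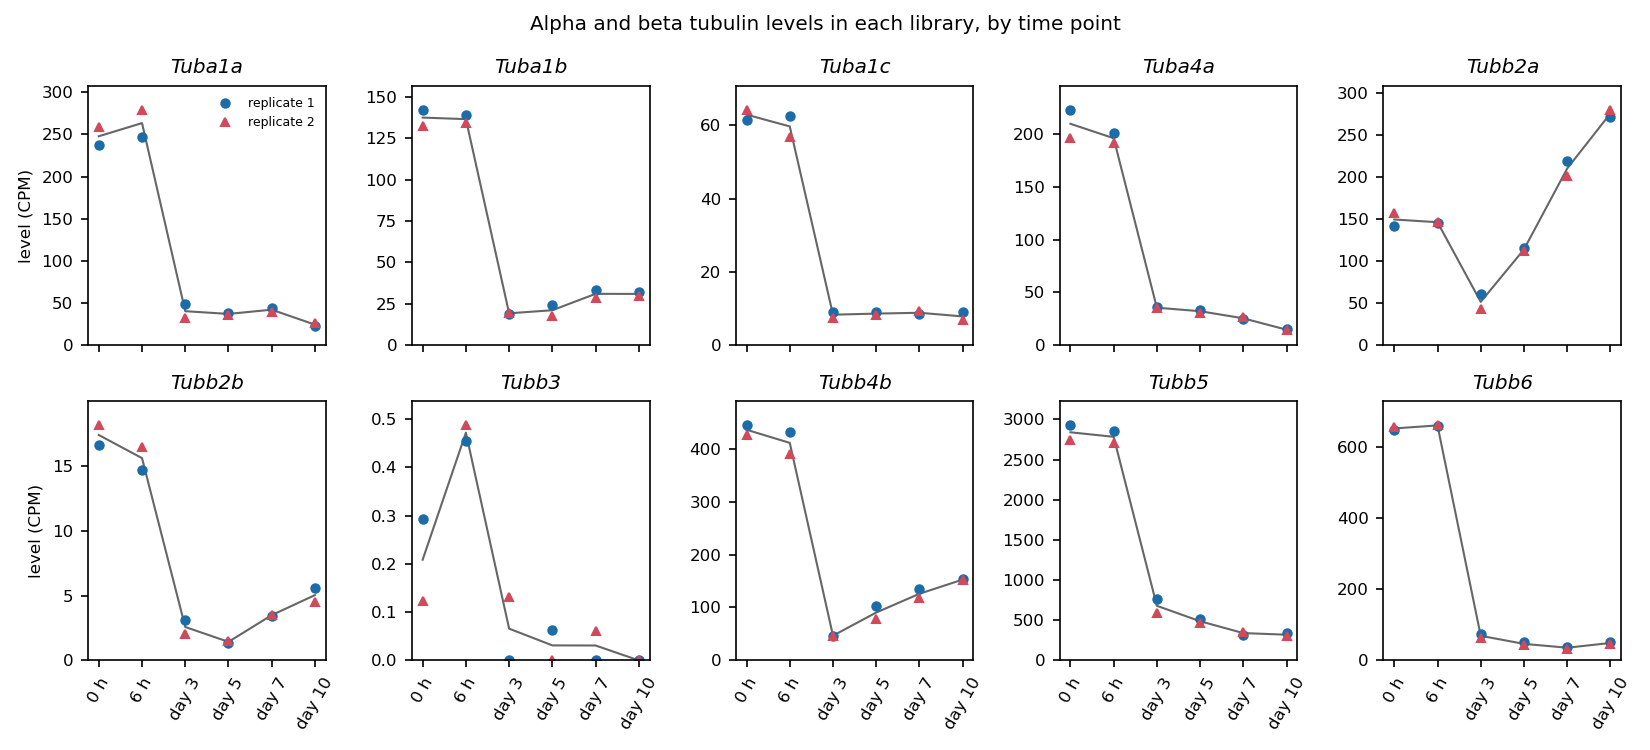
Level of each of the 10 tubulin genes in CPM (vertical axis, from 0, scaled per gene) at each time point (horizontal axis). Points are the 2 libraries, replicate 1 as circles and replicate 2 as triangles, and lines join the means. The 9 tested genes were all called lower on day 3 than at 0 h, as were 35.0% of all genes tested. Tubb2a has its highest values on day 10.

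Tubb5, the most widely expressed beta tubulin and the most abundant tubulin gene here at 0 h, stood at 2934 and 2747 CPM at 0 h, 2857 and 2712 at 6 h, 764 and 595 on day 3, 511 and 465 on day 5, 322 and 358 on day 7 and 339 and 300.4 on day 10. Libraries of days 3 and 5 did not overlap with each other or with any other time point, while those of days 7 and 10 did overlap. Its log2 fold change was -2.06 (SE 0.111, edgeR adjusted p = 1.22e-10) on day 3 and -3.15 (SE 0.116, adjusted p = 2.95e-13) on day 10, a level 8.88-fold lower than at 0 h. Tubb5 thus moved in steps, 4.10-fold lower from 6 h to day 3, then 1.39-fold lower to day 5 and 1.43-fold lower to day 7. Without day 3 replicate 1 the step to day 5 was -0.29, adjusted p = 0.0144, against -0.48 with it.

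Tubb6, a beta isotype found in many tissues outside the brain, lies at chr18:67390731-67402749 (GRCm38.p6). It had 650.2 and 657 CPM at 0 h, 660.1 and 664 at 6 h, 74.6 and 63.9 on day 3, 50.9 and 42.2 on day 5, 39.0 and 32.4 on day 7 and 52.9 and 45.3 on day 10. Every library from day 3 onward lay below every library of 0 h and 6 h, and the lowest libraries were those of day 7. Among the beta genes it fell most, by 18.3-fold to day 7 and 13.3-fold to day 10. The log2 fold change was -4.19 (SE 0.118, edgeR adjusted p = 2.67e-14) on day 7.

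Tubb4b, a beta isotype of dividing and ciliated cells, stood at 445 and 426 CPM at 0 h, 432 and 389.7 at 6 h, 46.6 and 46.8 on day 3, 102 and 78.8 on day 5, 134 and 118 on day 7 and 154 and 151 on day 10. The 2 day 3 libraries were the lowest, and the libraries of days 5, 7 and 10 lay in rising order without overlap, all below those of 0 h. The log2 fold change against 0 h was -3.22 (SE 0.110, edgeR adjusted p = 6.67e-13) on day 3 and -1.51 (SE 0.101, adjusted p = 9.16e-10) on day 10, that is 9.33-fold and 2.85-fold lower. The gene regained level from day 3 to day 5 by 0.95 (SE 0.107, adjusted p = 1.15e-06) and from day 5 to day 7 by 0.48 (SE 0.102, adjusted p = 0.00177). Without day 5 replicate 2 the latter step was 0.30, adjusted p = 0.0279.

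Tubb2b and Tubb3 are isotypes best known from neurons, and both were scarce. Tubb2b had 16.6 and 18.2 CPM at 0 h, 14.7 and 16.5 at 6 h, 3.11 and 2.04 on day 3, 1.37 and 1.49 on day 5, 3.46 and 3.52 on day 7 and 5.55 and 4.52 on day 10. It was lowest on day 5 and from day 3 on lower than at 0 h, with a log2 fold change of -3.60 (SE 0.206, edgeR adjusted p = 5.68e-11) on day 5 and -1.80 (SE 0.176, adjusted p = 5.41e-08) on day 10. Tubb3, at chr8:123411553-123422015, had 4 and 2 counts at 0 h, 7 and 9 at 6 h, and between 0 and 2 in each library from day 3 onward, with 0 in both day 10 libraries. At these counts no fold is given. Of the 10 listed markers of neurons and neuroendocrine cells, 6 (Snap25, Nefl, Nefm, Elavl4, Stmn2 and Chga) were not analysed here, and the other 4 (Rbfox3, Syt1, Syp and Elavl3) summed to between 0.0635 and 1.43 CPM in every library.

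Tubb2a was the exception in direction. This beta isotype, abundant in brain and present in many other tissues, had 142 and 157 CPM at 0 h, 145 and 147 at 6 h, 60.5 and 42.5 on day 3, 115 and 112 on day 5, 218 and 201 on day 7 and 271 and 280.0 on day 10. Its lowest libraries were those of day 3 and its highest those of day 10, and from day 5 on the groups did not overlap with each other or with 0 h. The level was 2.90-fold lower than at 0 h on day 3, a log2 fold change of -1.54 (SE 0.121, edgeR adjusted p = 8.18e-08). It was still lower on day 5, with a log2 fold change of -0.39 (SE 0.116, adjusted p = 0.00712). It was then higher than at 0 h, with log2 fold changes of 0.49 (SE 0.114, adjusted p = 0.00137) on day 7 and 0.88 (SE 0.115, adjusted p = 7.33e-06) on day 10, which is 1.84-fold. The call on day 5 was lost without 0 h replicate 2 (-0.31, adjusted p = 0.0636) and without day 5 replicate 2 (-0.37, adjusted p = 0.0502).

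The ratio of Tubb2a to its near copy Tubb2b, both per kilobase, was 10.2 and 10.4 in the 0 h libraries, 101 and 90.1 on day 5, and 58.4 and 74.2 on day 10. The ratios of 0 h and day 10 did not overlap. With 2 libraries against 2, an exact two-sided permutation test cannot go below p = 0.333, so the ratio was not tested.

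**Figure D2:**
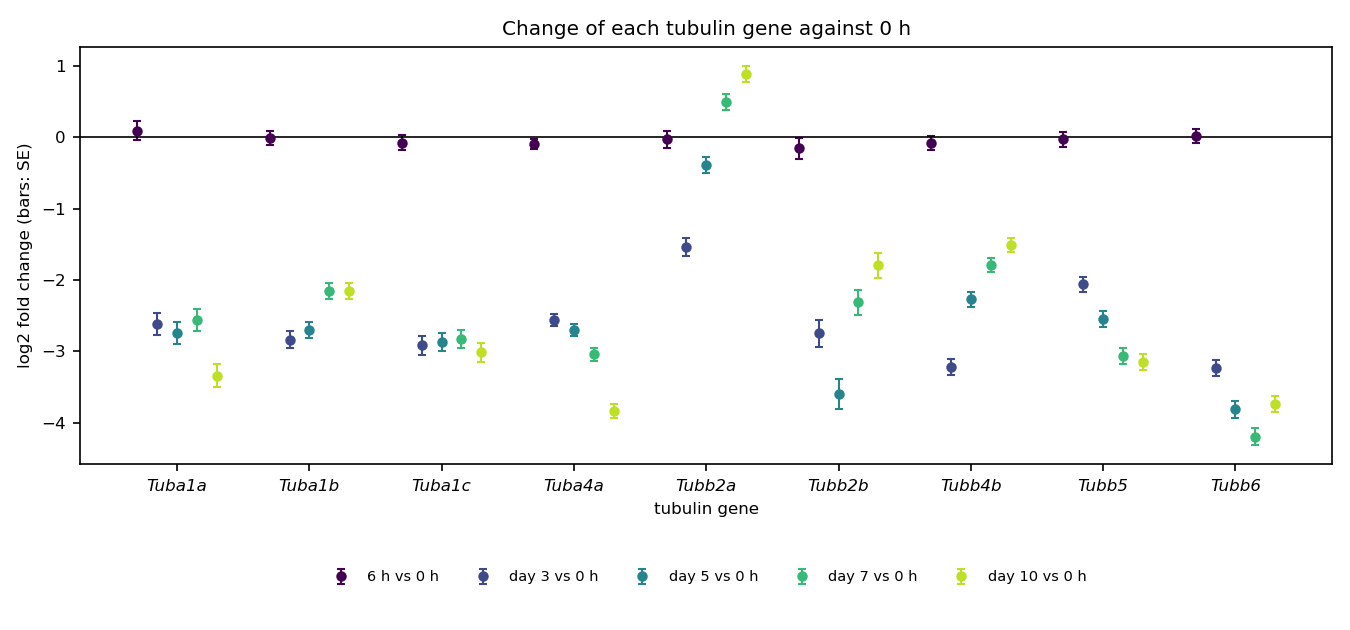
Log2 fold change against 0 h (vertical axis) of the 9 tested tubulin genes (horizontal axis) at 6 h and on days 3, 5, 7 and 10, in edgeR's model of all 12 libraries. Bars are SEs. Values at 6 h lie near 0, all genes are below 0 on days 3 and 5, and Tubb2a alone is above 0 on days 7 and 10.

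The 4 alpha genes fell together by day 3, with log2 fold changes from -2.92 to -2.56, and then parted. Tuba1a, the main alpha isotype of developing neurons and common in cultured cells, had 237 and 258 CPM at 0 h, 247 and 279 at 6 h, 48.3 and 32.3 on day 3, 37.8 and 36.4 on day 5, 44.4 and 39.8 on day 7 and 22.9 and 25.8 on day 10. Its libraries of days 3, 5 and 7 overlapped in part, and those of day 10 were lower than all of them. The change was -2.62 (SE 0.150, edgeR adjusted p = 2.59e-08) on day 3 and -3.34 (SE 0.161, adjusted p = 2.1e-09) on day 10. Tuba4a, the isotype encoded without a terminal tyrosine, had 223 and 196 CPM at 0 h, 201 and 191 at 6 h, 35.9 and 35.1 on day 3, 33.6 and 30.7 on day 5, 24.6 and 26.2 on day 7 and 15.3 and 14.0 on day 10. Here each later group lay below the one before it without overlap from 6 h to day 10. It fell furthest of the alpha genes, by 14.3-fold to day 10, a log2 fold change of -3.84 (SE 0.0953, adjusted p = 7.93e-16).

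Tuba1b, a ubiquitous alpha isotype, had 142 and 133 CPM at 0 h, 139 and 134 at 6 h, 19.1 and 19.4 on day 3, 24.3 and 17.9 on day 5, 33.4 and 28.6 on day 7 and 32.3 and 29.6 on day 10. Its libraries of days 7 and 10 lay above those of days 3 and 5 and below those of 0 h. The change was -2.83 (SE 0.117, edgeR adjusted p = 2.69e-12) on day 3 and -2.15 (SE 0.114, adjusted p = 1.85e-11) on day 10. The rise from day 5 to day 7 was 0.55 (SE 0.121, adjusted p = 0.00178). Without day 5 replicate 2 it was 0.35, adjusted p = 0.0354. Tuba1c, another broadly expressed isotype, stood at 62.9 ± 1.95 CPM at 0 h and between 6.74 and 9.32 CPM in the libraries of days 3 to 10, which overlapped. Its change was -3.01 (SE 0.133, adjusted p = 1.23e-12) on day 10.

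After day 3 the isotypes moved in different directions between neighbouring time points. From day 3 to day 5, Tubb2a and Tubb4b rose and Tubb2b, Tubb5 and Tubb6 fell, while none of the 4 alpha genes was called (of all genes, 34.0% rose and 31.0% fell). From day 5 to day 7, Tuba1b, Tubb2a, Tubb2b and Tubb4b rose and Tuba4a, Tubb5 and Tubb6 fell (of all genes, 19.0% rose and 18.8% fell). From day 7 to day 10, on rosiglitazone alone, Tubb2a and Tubb6 rose and Tuba1a and Tuba4a fell (of all genes, 15.1% rose and 13.2% fell). The log2 fold changes of that last step were 0.39 (SE 0.114, edgeR adjusted p = 0.02) for Tubb2a and 0.46 (SE 0.115, adjusted p = 0.00776) for Tubb6. For Tuba1a and Tuba4a they were -0.78 (SE 0.166, adjusted p = 0.00479) and -0.80 (SE 0.103, adjusted p = 2.36e-05). Whether alpha and beta genes differ in how often they changed was not tested.

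Several of these later calls changed when 1 library was left out, some of them with little change in the step itself. From day 3 to day 5, the call of Tubb2b (-0.85) was lost without day 3 replicate 1 (-0.51, adjusted p = 0.189) and without day 5 replicate 1 (-0.81, adjusted p = 0.0522). Calls were gained by Tuba1a without day 3 replicate 2 (-0.38, adjusted p = 0.00537) and by Tuba1b without day 5 replicate 2 (0.34, adjusted p = 0.0219). The direction of both turned without the other library of that day, to 0.20 for Tuba1a without day 3 replicate 1 and -0.12 for Tuba1b without day 5 replicate 1. From day 5 to day 7, Tuba4a lost its call without day 5 replicate 1 (-0.26, adjusted p = 0.0772) and day 7 replicate 1 (-0.29, adjusted p = 0.0732), and Tubb6 without day 5 replicate 1 (-0.23, adjusted p = 0.188) and day 7 replicate 2 (-0.25, adjusted p = 0.164). From day 7 to day 10, the rise of Tubb2a was not called without day 7 replicate 2 (0.33, adjusted p = 0.149), day 10 replicate 1 (0.42, adjusted p = 0.0741) or day 10 replicate 2 (0.37, adjusted p = 0.116). That of Tubb6 was not called without day 7 replicate 2 (0.33, adjusted p = 0.107) or day 10 replicate 1 (0.34, adjusted p = 0.0966), nor the fall of Tuba1a without day 10 replicate 1 (-0.70, adjusted p = 0.0513). Tubb4b, at 0.28 (SE 0.102, adjusted p = 0.0527) from day 7 to day 10, was called without day 5 replicate 1 (0.27, adjusted p = 0.0147), day 5 replicate 2 (0.28, adjusted p = 0.0126) or day 7 replicate 1 (0.38, adjusted p = 0.0402).

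These courses changed which isotypes made up the tubulin mRNA. Among beta transcripts per kilobase, Tubb5 made up 59.7% and 58.1% in the 2 libraries of 0 h, 72.2% and 70.6% on day 3 and 30.1% and 27.6% on day 10. The share of Tubb2a was 4.75% and 5.48% at 0 h, 9.41% and 8.31% on day 3, 20.05% and 21.9% on day 5, 37.2% and 35.4% on day 7 and 39.6% and 42.4% on day 10. Per kilobase, Tubb2a and Tubb5 were about level on day 7, where the ratio of Tubb5 to Tubb2a was 0.893 and 1.08, after 12.6 and 10.6 at 0 h. Tubb4b went from 14.9% ± 0.0592 at 0 h through 8.23% ± 1.36 on day 3 to 22.8% ± 0.337 on day 10, and Tubb6 from 20.6% ± 0.688 to 6.71% ± 0.561 (SD, n = 2). The shares of Tubb2b and Tubb3 stayed below 1% in every library.

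Among alpha transcripts the shares of Tuba1a, Tuba1b and Tuba4a on days 3 and 5 overlapped those of 0 h, and the makeup shifted later. Tuba1b went from 24.8% and 23.3% at 0 h to 33.3% and 30.9% on day 7 and 44.8% and 42.5% on day 10, without overlap between 0 h and either time. Tuba4a went from 26.1% and 23.1% to 14.2% and 13.5% on day 10 and Tuba1a from 40.6% and 44.6% to 31.2% and 36.4%. Summed over the 4 alpha genes the level was 367 and 364 CPM per kilobase at 0 h, 62.7 and 51.6 on day 3 and 46.2 and 44.6 on day 10, 12.4% of the start. The beta sum was 1857 and 1789 at 0 h, 400.1 and 318 on day 3 and 426 and 411 on day 10, 23.0% of the start. The beta sum was above the alpha sum in every library. Since reads of Tuba1a, Tuba1b and Tuba1c are largely alike, the alpha sum and its split depend on how shared reads were counted.

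**Figure D3:**
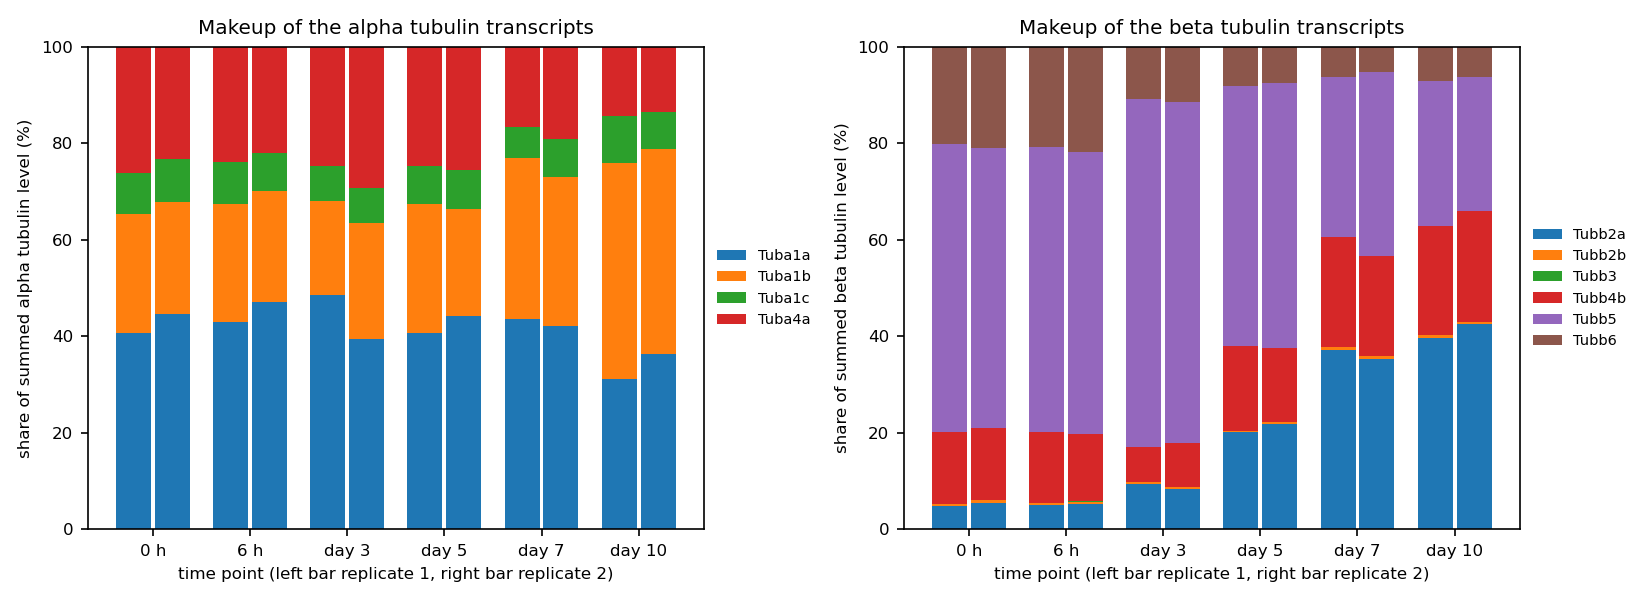
Share of each isotype in the summed alpha (left) and beta (right) tubulin level, in percent of CPM per kilobase (vertical axis), by time point (horizontal axis). Each pair of bars holds replicate 1 and replicate 2. Tubb2a grows from 4.75% and 5.48% of beta transcripts at 0 h to 39.6% and 42.4% on day 10, while Tubb5 shrinks from 59.7% and 58.1% to 30.1% and 27.6%.

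Ordered by level per kilobase, Tubb5 led at 0 h with 1074 ± 50.1 CPM per kilobase, followed by Tubb6 (375 ± 2.58), Tubb4b (272 ± 8.31) and Tuba1a (156 ± 9.38). Tubb2a (93.1 ± 6.92), Tuba4a and Tuba1b came next and overlapped in order, and Tuba1c, Tubb2b and Tubb3 were lowest. On day 3 Tubb5 still led with 257 ± 45.3, and Tubb6, Tubb2a, Tubb4b and Tuba1a followed with neighbours overlapping. On day 10 Tubb2a led with 172 ± 4.08, then Tubb5 with 121 ± 10.4 and Tubb4b with 95.4 ± 1.07, and no neighbours in this order overlapped. That lead rests on the deposited lengths, whose source is not known: in CPM without them, Tubb5 stood above Tubb2a on day 10 (320.0 ± 27.6 against 275 ± 6.54) and on day 7 (340.0 ± 25.9 against 210.0 ± 12.1).

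The genes whose course was most like that of each member were found by Pearson's r of log2 CPM over the 12 libraries, among 9279 genes with a mean of at least 10 CPM. The 12 libraries share time and treatment, so high values are common and r is a description only. It also takes no account of how far a gene moved. From 0 h to day 10, H1f1 went from 45.0 to 0.198 CPM, and Tuba1a, which it is listed with, from 248 to 24.4. Psmd2 went from 353 to 246 CPM, and Tuba1b, which it is listed with, from 137 to 31.0. Over the same libraries Tubb2a had r between -0.18 and 0.52 with the other 8 tested members, which had r between 0.73 and 0.99 with each other. Tubb2a was most like Swi5 (r = 0.991), Ptpa (0.987) and Ppp2ca (0.986). The latter 2 encode an activator and a catalytic subunit of the phosphatase PP2A, and Ptpa went from 267 CPM at 0 h through 136 on day 3 to 381 on day 10. Tubb5 was most like Haus3 (0.998), a subunit of the augmin complex of the spindle, Polr1d (0.998), an RNA polymerase subunit, and Skp2 (0.997), part of a ubiquitin ligase of the cell cycle. Tubb4b was most like Cks1b (0.998), Pagr1a (0.996) and the histone chaperone gene Asf1b (0.994), the first of which encodes a regulator of cyclin-dependent kinases. For Tubb6 they were the histone genes H3c7 (0.999) and H4c1 (0.998) and Sipa1 (0.997). Tuba1c was most like the mitotic kinase gene Aurka (0.997), H2ax (0.995) and Usp1 (0.994), and Tuba4a was most like Eif5a (0.997), Tcp1 (0.996), which encodes a subunit of the chaperonin that folds tubulin, and Heatr3 (0.996). Tuba1a was most like H1f1 (0.994), Ak6 (0.994) and Ttl (0.991), the last encoding the ligase that puts tyrosine back on alpha tubulin, at 53.0 CPM at 0 h and 16.1 on day 10. Tuba1b was most like H4c8 (0.997), Ywhah (0.994) and Psmd2 (0.993), and Tubb2b like Selenoi (0.978), Zfp948 (0.977) and Gja1 (0.976).

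The other alpha and beta tubulin genes were nearly silent: Tuba3a, Tuba3b, Tuba8, Tubal3 and Tubb4a had between 0 and 3 counts in each library and were not tested, and Tubb1 and the pseudogene Tubb4b-ps1 were not analysed here. The genes around the tubulins are given from lists chosen by function, and their counts on day 10 stand against 39.9% of all genes lower and 42.8% higher. Of 15 genes for gamma, delta and epsilon tubulin and the ring complex that nucleates microtubules, 11 were lower and 2 higher on day 10 than at 0 h (median log2 fold change -1.07, against 0.06 over all genes). Pcnt, which anchors the ring complex at the centrosome, changed by -1.47 (SE 0.0940), Tubgcp3, a subunit of the ring complex, changed by -1.07 (SE 0.0886) and the epsilon tubulin gene Tube1 by -2.50 (SE 0.409). Akap9, a scaffold of the centrosome and Golgi, rose by 0.86 (SE 0.0797).

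Among 13 genes for prefoldin, which hands new tubulin to its chaperonin, and for the cofactors that assemble the dimer, 9 were lower and 4 higher on day 10 (median -0.51). The prefoldin subunit genes Vbp1 and Pfdn6 changed by -1.64 (SE 0.0994) and -1.34 (SE 0.107) and Pfdn1 by -0.81 (SE 0.0892), while Pfdn5 rose by 0.66 (SE 0.0764). Of 4 genes of the control of tubulin mRNA, 2 were lower and 2 higher on day 10 (median 0.11). Scaper, whose product links TTC5 on the ribosome to mRNA decay, rose by 1.07 (SE 0.1005), from 20.9 ± 1.12 CPM at 0 h to 43.9 ± 1.91 CPM. Cnot1 and Cnot11, subunits of the deadenylase that acts in this decay, changed by -0.28 (SE 0.0810) and -0.97 (SE 0.0832).

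The 20 tested genes for enzymes that modify tubulin had 10 lower and 5 higher on day 10 (median -0.59), against 39.9% lower and 42.8% higher over all genes. Vash2, which cuts the tyrosine off alpha tubulin, went from 30.8 ± 0.631 CPM at 0 h to 2.13 ± 0.231 on day 10, a log2 fold change of -3.84 (SE 0.161). The carboxypeptidase genes Agbl3 and Agtpbp1 rose by 3.19 (SE 0.171) and 0.80 (SE 0.0922), and Ttll12, a member of the tubulin ligase family, changed by -0.50 (SE 0.0900). Of 6 stathmin and severing genes, 4 were lower and 1 higher (median -0.80). Stmn1, which binds free tubulin dimers, went from 14.9 ± 1.13 to 0.301 ± 0.208 CPM. The severing ATPase genes Katna1 and Spast changed by 0.70 (SE 0.0844) and -0.22 (SE 0.0765), and Fignl1, a related ATPase gene known from DNA repair, by -5.25 (SE 0.147).

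Proteins that bind along microtubules or at their plus ends had 14 genes lower and 5 higher of 21 (median -1.07), and Tppp and Mtus1 were among those that rose. Tppp, which bundles and stabilises microtubules, had 7 counts over both 0 h libraries and 0 on day 3, and reached 484 ± 16.7 CPM on day 10. That was at least 5003-fold higher than on day 3, taking 3 counts over both day 3 libraries as the limit that a count of 0 allows. It passed the filter on low counts only through the later times, so that it differed is no independent result. Mtus1, which encodes microtubule-associated isoforms, went from 13.9 ± 0.588 CPM at 0 h through 51.1 ± 0.466 on day 3 to 714 ± 13.9 on day 10, a log2 fold change of 5.68 (SE 0.125). The polymerase gene Ckap5 changed by -1.13 (SE 0.0737). Map1a had 37 counts over the 0 h libraries and 0 on day 10, at least 10.0-fold lower. It passed the filter only through 0 h and 6 h, when it was higher, so its fall is no independent result either.

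Of 25 genes for motors of transport along microtubules, 10 were higher and 11 lower on day 10 (median 0.05), shares near those over all genes. The dynein heavy chain gene Dync1h1 changed by -0.62 (SE 0.0915) and the kinesin genes Kif5b and Kif5c by -0.95 (SE 0.0710) and -3.31 (SE 0.120). Kif1a had 0 counts at 0 h and 1.64 CPM on day 10, at least 16.0-fold higher. It too passed the filter only through the time when it was higher.

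The genes for motors and binding proteins of the mitotic spindle fell with the tubulins by day 3, and further. All 19 were lower on day 3 (median -6.02) and on day 10 (median -6.38), where the tubulin medians were -2.75 and -3.01. Of all genes, 35.0% were lower on day 3 and 39.9% on day 10. Prc1, which bundles the central spindle, went from 443 ± 28.9 CPM at 0 h to 6.82 ± 2.30 on day 3 and 7.79 ± 1.77 on day 10. The kinesin gene Kif20a went from 392 ± 14.96 through 5.18 ± 1.47 to 9.67 ± 0.623 CPM, and Kif14 and Kif18b changed by -7.52 (SE 0.181) and -7.24 (SE 0.189) by day 10. From day 3 to day 5, 13 of the 19 rose and 1 fell (of all genes, 34.0% rose and 31.0% fell). From day 5 to day 7, 16 fell and 0 rose (of all genes, 18.8% fell and 19.0% rose). Over that last step Tubb2a, Tubb4b, Tubb2b and Tuba1b rose and Tuba4a, Tubb5 and Tubb6 fell. The part of these genes' change in the fall of the tubulins was not tested.

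**Figure D4:**
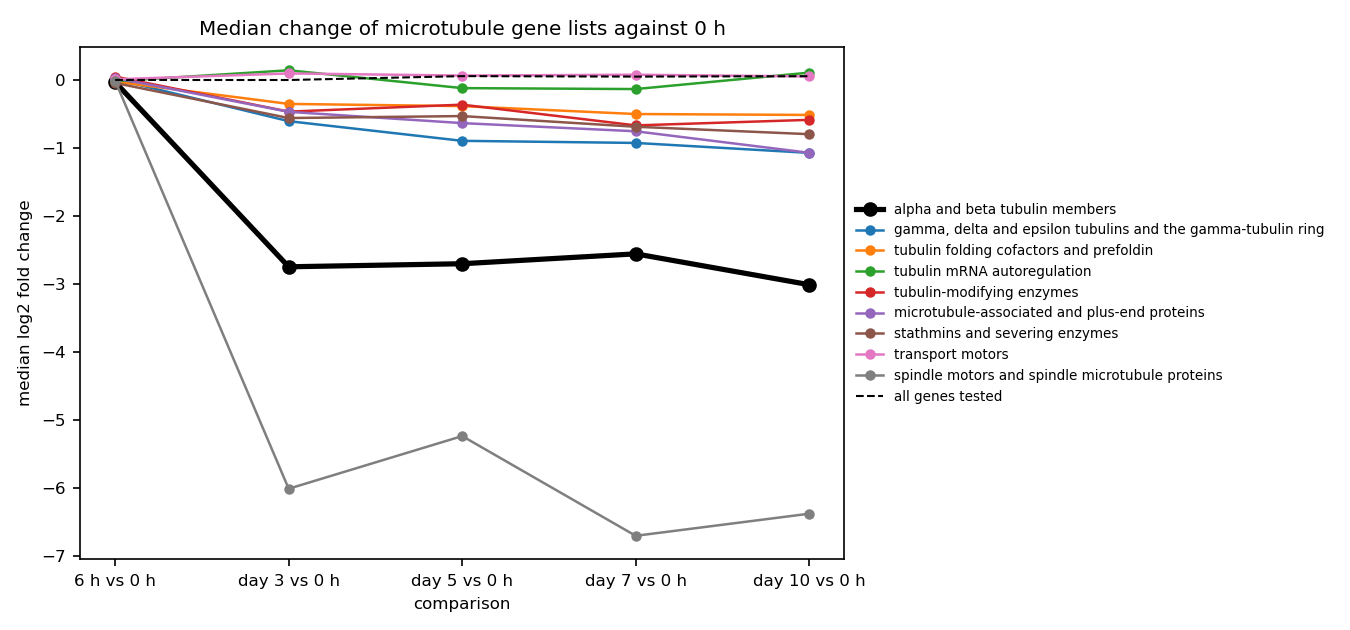
Median log2 fold change against 0 h (vertical axis) at 5 later time points (horizontal axis) of the 9 tested tubulin genes (thick line), 8 lists of other microtubule genes and all genes tested (dashed line). The tubulin median lies between -3.01 and -2.56 from day 3 on, below every list other than the spindle list, whose median lies between -6.71 and -5.24.

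Cell type markers moved over the same days. Counts of called markers on day 10 stand against 42.8% of all genes higher and 39.9% lower than at 0 h. The 10 white fat cell markers were all higher on day 10 than at 0 h. Several of them, among them Adipoq, Plin1, Lep, Cfd and Retn, passed the filter on low counts only through the later times. That these were higher is therefore no independent result. The summed level of the 10 was 24.3 to 26.6 CPM in the 0 h libraries, 53.2 to 63.7 on day 3 and 32240.4 to 33789.9 on day 10. Of 8 mesenchymal markers, 3 were higher and 4 lower on day 10, and their sum was 11274 to 11675 CPM at 0 h, 11572 to 15933 on day 3 and 3295 to 3727 on day 10. Most of the day 3 sum was Fn1, with a mean of 9794 CPM against 1646 at 0 h. Over that step Vim fell from 7172 to 2456 CPM and S100a4 from 2070 to 885. The 6 tested epithelial markers had 2 higher and 3 lower. Of these, Epcam passed the filter on low counts only through the later times and Cldn3 only through 0 h and 6 h. That they differed is therefore no independent result. Over the 8 listed, the sum was 842 to 853 CPM at 0 h and 103 to 150.1 on day 3. On day 10 it was 906 to 964, with a changed makeup. From 0 h to day 10, mean Krt8 went from 553 to 222 CPM, Krt18 from 172 to 43.5 and Krt14 from 117 to 664. Over all 12 libraries the summed levels were 0.627 to 8.32 CPM for ciliated cells, 1.03 to 8.35 for leukocytes, 0.239 to 3.98 for endothelium and 0.445 to 2.30 for muscle. Their defining genes Dnah5, Tekt1 and Rsph1, Itgam, Adgre1 and Cd3e, Tie1 and Cldn5, and Myod1, Myog and Ckm were not analysed here. The part of cell type in the tubulin changes was not tested beyond these values.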

How the data were processed

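RNA-seq of poly-A+ RNA (a stranded TruSeq kit, per the labels' protocols) was deposited by the authors as 1 table of whole-number counts per gene, with a gene length column, for 12 libraries. Alignment used STAR and the build mm10, per the submitters' processing notes. Not given in the sources used here are the counting tool, its annotation and strand setting, how it treated reads matching several genes, and how gene lengths were measured. Sample titles gave each library's time point and replicate number, and the sample descriptions named its count column. Of 17090 genes, 17045 matched RefSeq (GRCm38.p6) and 4 GENCODE M21 by identifier.

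The quasi-likelihood test of edgeR 4.0.16 (R 4.3.3) was fitted to all 12 libraries with 1 term per time point, TMM factors and filterByExpr (minimum count 10, minimum total 15), which kept 12740 genes and left 6 residual degrees of freedom. P-values were adjusted by Benjamini-Hochberg over those genes. The procedure was tested on simulated data in which few genes changed, on day 10 alone. In the data reported here most genes were called, so that simulation cannot test the scaling under such wide change. Alternatives were other scaling factors and filters, DESeq2 1.42.0, a replicate block, fits to the compared libraries alone and leaving out each library.

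The tubulin genes and gene lists were chosen with earlier results of these data known. From each list, the 2 genes with the highest mean CPM and the 2 called genes with the largest change on day 10 are named, and the 3 genes most like each tubulin. Per-kilobase levels rest on the deposited lengths.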

Additional observations from a re-analysis of the deposited data

How the results depend on the processing

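Of the 81 tested changes (9 genes in 9 comparisons), 71 kept their direction under all alternatives run and 10 changed sign under at least 1. None of the 18 values that changed sign was called, in the fit reported or in the alternative. At 6 h against 0 h the values with 1 library left out ran from -0.00282 to 0.172 for Tuba1a, -0.0596 to 0.0399 for Tuba1b, -0.107 to 0.0469 for Tubb2a and -0.0753 to 0.0176 for Tubb5. From day 3 to day 5 they ran from -0.381 to 0.200 for Tuba1a, -0.122 to 0.338 for Tuba1b and -0.0848 to 0.201 for Tuba1c, which was -0.0279 with upper-quartile factors. For Tuba1c they ran from -0.0409 to 0.113 from day 5 to day 7 and from -0.395 to 0.0146 from day 7 to day 10. For Tuba1b from day 7 to day 10 they ran from -0.111 to 0.109, with 0.00209 under median-of-ratios factors and 0.00715 with the filter at a mean of 1 CPM. DESeq2 and median-of-ratios factors changed no call. Upper-quartile factors, both other filters, the replicate block and fits to the compared libraries alone gained 1 call each and lost none. The gained call was Tuba4a from day 3 to day 5 with upper-quartile factors (-0.22, adjusted p = 0.037), and otherwise Tubb4b from day 7 to day 10 (0.26 to 0.29, adjusted p between 0.00561 and 0.0474). Leaving out 1 library at a time gained 5 calls and lost 14 of 972. Among counts of called tubulins, those lower on day 7 than on day 5 ranged from 1 to 3 over these left-out libraries, against 3. Those higher on day 10 than on day 7 ranged from 0 to 3, and those lower from 1 to 2, against 2 each. With the replicate block, 3 tubulins were higher on day 10 than on day 7, in place of 2, and the block changed no other count. The deviations between replicates correlated weakly between time points, from -0.0913 to 0.193 over 15 pairs of time points, and over 0.1 in 1. Whether equal replicate numbers mark the same experiment cannot be told from this, and the fit reported did not pair them. No scaling moved the median of all genes by more than 0.0986 (log2). Without the length divisor, 48 of 60 isotype shares and 3 of 10 sums of the alpha or beta level moved by more than their replicate SD, and without TMM factors 0 shares and 4 sums did. Without that divisor Tubb5 led on days 7 and 10. With it, Tubb2a led on day 10, while on day 7 the libraries of Tubb2a and Tubb5 overlapped. With 2 libraries per time point the spread is poorly known for any single gene, and Tubb3 was too scarce to compare at this depth.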
